A study of Mus musculus with 4 samples.

Results

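The 10 genes described here, H2-K1, H2-D1, H2-T23, B2m, Tap1, Tap2, Tapbp, Psmb8, Psmb9 and Nlrc5, encode the pathway that loads peptides onto major histocompatibility complex (MHC) class I molecules. They were chosen by name from the 32285 genes counted in the series, and all 10 were found in every library. The series holds single-cell RNA profiles of limb marrow taken on postnatal day 12, all on the C57BL/6 background, from Prx1-cre;Mettl3-fl/fl mice (mutant) and from control mice, with 2 libraries per genotype. The genotype of mutant 2 is labelled only as mutant, the alleles that controls carry are not given in the sources used here, and the 3 mice of each genotype that were sorted are not tied to libraries. The p-values below therefore measure the spread between these libraries, which may be technical.

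Mettl3 encodes the catalytic subunit of the enzyme that writes N6-methyladenosine on RNA, and Prx1-cre is active in limb mesenchyme, from which marrow stromal cells and bone cells of the limb arise. Blood and endothelial cells come from other lineages. The sort kept live cells (DAPI-negative, Calcein-AM-positive) that lacked the leukocyte antigen CD45 and the erythroid antigen Ter119, and droplet 3′ libraries were made with 10x reagents. Counts are UMIs, unique molecular identifiers that tag single captured RNA molecules. The libraries held 47390414 to 116863081 UMIs, and 2628 to 5808 barcodes per library with at least 1000 UMIs, 500 genes and at most 10% mitochondrial UMIs were kept as cells. Between 2 and 10 kept barcodes were shared by any pair of libraries, at most 0.218% of the smaller one.

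On the cell surface, a class I heavy chain pairs with beta-2 microglobulin and shows a short peptide from the cell's own proteins to CD8 T cells and natural killer cells. Proteasomes cut the peptides, a transporter carries them into the endoplasmic reticulum, and tapasin helps to load them. Most nucleated cells make these proteins, and interferon raises them. H2-K1 and H2-D1 encode the classical heavy chains of this mouse strain, H2-T23 a non-classical one that is read by receptors of natural killer cells, and B2m the light chain. Tap1 and Tap2 encode the chains of the peptide transporter, Tapbp tapasin, and Psmb8 and Psmb9 catalytic subunits of the immunoproteasome. Nlrc5 encodes an activator of transcription at class I promoters.

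In GENCODE M21 (build GRCm38), 8 of the 10 genes lie on chromosome 17. H2-K1 spans chr17:33996017-34000347 on the minus strand and H2-D1 chr17:35262730-35267499 on the plus strand. Tap1, Psmb8 and Tap2 lie next to one another on the plus strand, at chr17:34187553-34197225, chr17:34197721-34201454 and chr17:34203527-34216321. Psmb9 (chr17:34181987-34187764, minus strand) overlaps the start of Tap1. H2-T23 lies at chr17:36029773-36032855 and Tapbp at chr17:33915899-33929292, while B2m lies on chromosome 2 and Nlrc5 on chromosome 8. Of the 60-base windows in the last 400 bases of the transcripts, where 3′ libraries read, 28.7% of those of H2-T23 and 6.45% of those of H2-D1 also occur in transcripts of other genes. No such window was found for H2-K1 or B2m, and the counts of H2-T23 carry that uncertainty.

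The promoters of the 3 heavy chains and of B2m are shown because these 4 genes fell in mutant stromal and bone cells, described below. Psmb8 and Psmb9 fell in both as well. They are RefSeq sequences on GRCm38.p6, from 250 bases before to 50 bases after the start, 5′ to 3′ on the gene's strand. Capitals mark matches, on either strand, to a palindromic kappa B element (4 G, then ATT, then 4 C), to TGACGCG (an X2-like element) and to an interferon response element (GAAA, 2 bases of any kind, GAAA). The regions are chr17:34000298-34000597 (minus) for H2-K1, chr17:35262844-35263143 (plus) for H2-D1, chr17:36032652-36032951 (minus) for H2-T23 and chr2:122147437-122147736 (plus) for B2m.
H2-K1: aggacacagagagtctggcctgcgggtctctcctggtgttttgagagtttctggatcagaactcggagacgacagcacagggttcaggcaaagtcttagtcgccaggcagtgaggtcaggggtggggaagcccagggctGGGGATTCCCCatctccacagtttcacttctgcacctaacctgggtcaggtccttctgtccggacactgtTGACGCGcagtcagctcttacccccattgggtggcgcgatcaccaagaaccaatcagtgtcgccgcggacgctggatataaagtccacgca
H2-D1: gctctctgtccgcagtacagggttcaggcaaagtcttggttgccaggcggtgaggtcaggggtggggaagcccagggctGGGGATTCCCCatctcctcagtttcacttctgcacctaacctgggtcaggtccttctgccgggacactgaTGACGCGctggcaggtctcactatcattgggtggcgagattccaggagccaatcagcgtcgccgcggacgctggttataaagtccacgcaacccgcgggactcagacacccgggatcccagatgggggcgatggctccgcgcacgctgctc
H2-T23: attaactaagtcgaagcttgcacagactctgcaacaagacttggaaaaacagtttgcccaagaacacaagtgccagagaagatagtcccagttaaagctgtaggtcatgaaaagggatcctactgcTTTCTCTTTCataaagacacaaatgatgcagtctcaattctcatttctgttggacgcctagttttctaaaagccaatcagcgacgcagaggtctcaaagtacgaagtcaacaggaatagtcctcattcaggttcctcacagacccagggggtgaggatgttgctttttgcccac
B2m: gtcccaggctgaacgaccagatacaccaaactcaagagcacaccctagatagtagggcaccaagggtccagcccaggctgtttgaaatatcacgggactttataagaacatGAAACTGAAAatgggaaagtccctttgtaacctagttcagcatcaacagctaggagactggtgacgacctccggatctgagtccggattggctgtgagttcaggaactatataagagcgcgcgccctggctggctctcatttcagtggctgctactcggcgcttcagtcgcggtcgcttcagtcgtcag

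H2-K1 and H2-D1 both held the kappa B letters, 111 and 171 bases before the start, and the X2-like letters, 41 and 101 bases before it. The kappa B letters were found in 10 of 32851 promoters of this table, or 0.0304%, and the X2-like letters in 1.91%. The interferon response letters were found in B2m, 139 bases before the start, and in H2-T23, where they lie on the opposite strand and read TTTCTCTTTC; 3.44% of all promoters held them. These are exact letter matches in the reference genome, so variants of an element, also in H2-K1 and H2-D1, are not marked. The table had promoters for 8 of the 10 genes and none for Tap2 and Nlrc5.

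Cells were assigned to classes by marker genes. A cell needed at least 3 markers of a class with at least 2 UMIs each, and the highest share of its list among 12 lists, by at least 20 percentage points. The stromal class (Cxcl12, Lepr, Adipoq and 5 other markers of marrow reticular cells) held 49 and 22 cells in mutants 1 and 2, and 1013 and 49 in controls 1 and 2. The bone class (Col1a1, Ibsp, Bglap and others) held 1807 and 1319 mutant cells and 274 and 43 control cells. There were 45 and 856 mutant and 27 and 546 control endothelial cells, and 84 and 753 mutant and 3368 and 2596 control erythroid cells. Erythroid cells and, in mutants, 180 and 778 neutrophils were thus abundant although the label calls the sample non-hematopoietic. Mettl3 had 1 and 4 UMIs in stromal cells of mutants 1 and 2 and 98 and 3 in controls 1 and 2. Per 1000000 of the class's UMIs, Mettl3 stood at 1.65 and 13.1 in these mutants and at 14.97 and 8.16 in these controls. The genotypes thus overlapped in stromal cells. In bone cells it had 3.76 and 6.22 UMIs per 1000000 of the class's UMIs (CPM) in mutants and 6.20 and 10.0 CPM in controls, a log2 difference of -0.87 that did not pass (adjusted p = 0.0899), and a 3′ read can lie outside the deleted exons.

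In stromal cells, 7 of the 9 pathway genes tested fell in the mutant libraries and none rose, where 7.29% of the 7220 genes tested fell. The median log2 difference of the 9 was -1.74, beside -0.02 over all genes. Differences are log2 of mutant over control with their standard error (SE), from edgeR's quasi-likelihood test on UMIs summed per library and class. A call needed a p adjusted over all genes (Benjamini-Hochberg) under 0.05.

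The classical heavy chains fell most firmly. H2-K1 stood at 26.4 and 19.6 CPM in mutants 1 and 2, against 475 and 492 CPM in controls 1 and 2. These levels rest on 16 and 6 UMIs in the mutants and on 3108 and 181 in the controls. The mutant mean of 23.01 ± 4.83 CPM was 18.5-fold below the control mean of 484 ± 12.5 CPM by the fitted difference (SD, n = 2 each; log2 difference -4.21, SE 0.30, adjusted p = 5.93e-05 by edgeR). H2-D1, the other classical heavy chain, had 132 and 131 CPM in mutants and 875 and 677 CPM in controls. Its fitted difference was -2.42 (SE 0.28, adjusted p = 0.000545 by edgeR), a 5.36-fold fall. Both genes kept their call in all 11 alternatives run, with differences of -4.57 to -3.99 for H2-K1 and -2.67 to -2.16 for H2-D1.

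The light chain and the non-classical heavy chain were lower too. B2m had 233 and 202 CPM in mutant stromal cells and 742 and 503 CPM in controls, so the groups did not overlap (log2 difference -1.36, SE 0.27, adjusted p = 0.00827 by edgeR). H2-T23 was close to the limit of the mutant sums, with 3 and 2 UMIs there (4.96 and 6.53 CPM) and 414 and 10 UMIs in controls (63.2 and 27.2 CPM; log2 difference -3.04, SE 0.56). Control 1 held most control stromal cells, and without it neither gene passed: the differences became -2.03 for H2-T23 (adjusted p = 0.595) and -1.001 for B2m (adjusted p = 0.522). B2m also missed the threshold without control 2, at -1.70 (adjusted p = 0.161). In these fits with 1 library on a side, that library is assumed to vary like the others.

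Among the processing and loading genes, the immunoproteasome and tapasin fell while the transporter did not pass. Psmb8 had 28.1 and 26.1 CPM in mutants and 118 and 73.4 CPM in controls (log2 difference -1.74, SE 0.33). Psmb9 had 0 and 2 UMIs in mutants against 217 and 11 UMIs in controls, where 0 UMIs in mutant 1 allow up to 4.96 CPM and controls stood at 33.1 and 29.9 CPM. Tapbp had 46.2 and 52.2 CPM in mutants and 128 and 109 CPM in controls (log2 difference -1.17, SE 0.27). All 3 passed, with adjusted p of 0.00652, 0.0148 and 0.0166 by edgeR, and each lost its call in some alternatives. Without control 1, Psmb8 stood at -1.21 (adjusted p = 0.421) and Tapbp at -0.95 (adjusted p = 0.489). Tapbp was also lost without mutant 1 (-1.16, adjusted p = 0.132) and without control 2 (-1.31, adjusted p = 0.159), and Psmb9 without mutant 1 (-2.27, adjusted p = 0.138).

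Tap1 and Tap2 did not pass in stromal cells. Tap1 had 13.2 and 26.1 CPM in mutants and 25.7 and 24.5 CPM in controls, so the genotypes overlapped (log2 difference -0.43, SE 0.46). Tap2 had 18.2 and 22.9 CPM in mutants and 45.5 and 32.6 CPM in controls (log2 difference -0.92, SE 0.41, adjusted p = 0.167 by edgeR). Nlrc5, with 1 to 28 UMIs per library, was too rare to be tested; it stood at 3.30 and 3.27 CPM in mutants and 4.28 and 5.44 CPM in controls.

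**Figure D1:**
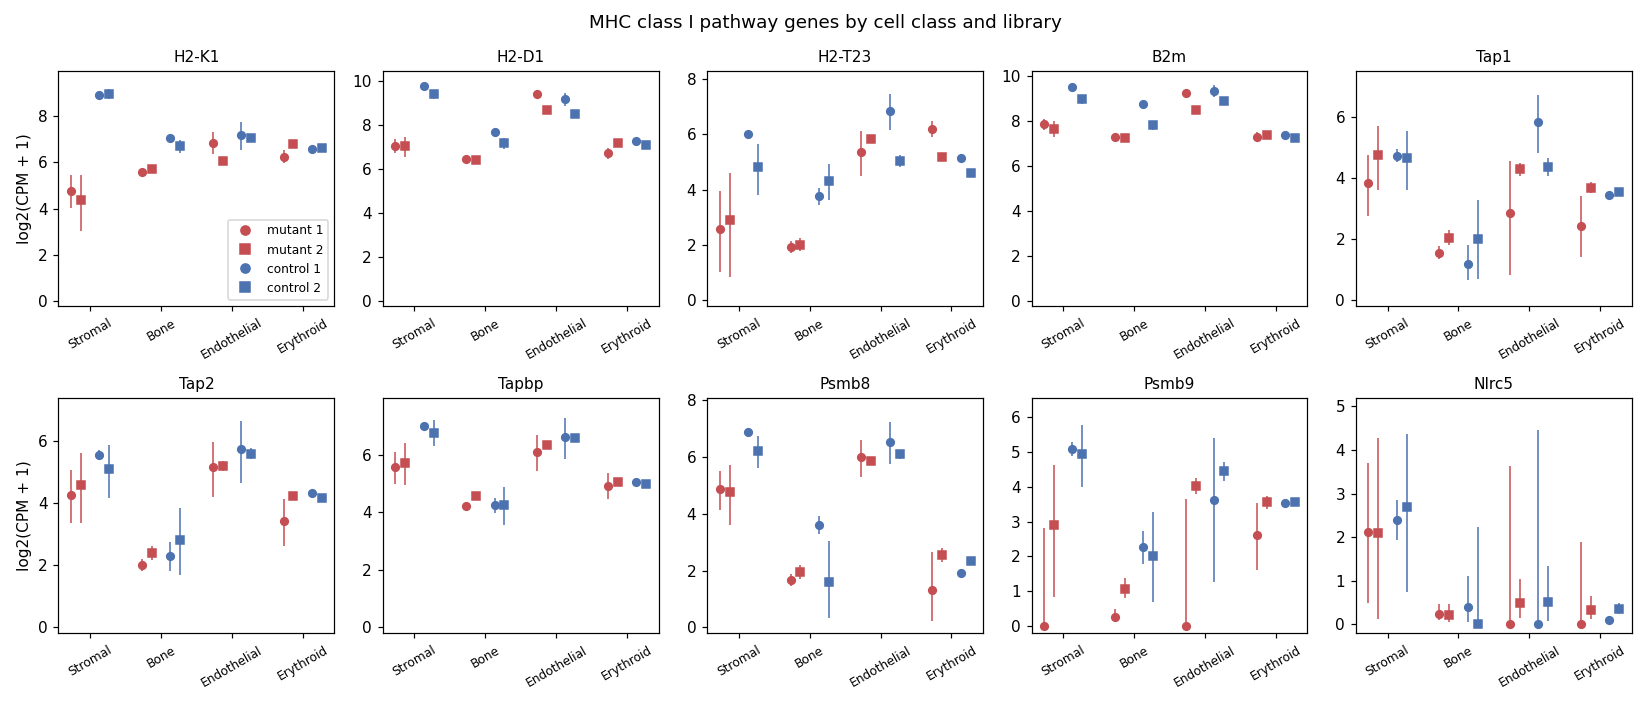
Level (y axis) of each of the 10 genes, as log2(CPM + 1), in 4 cell classes; points are single libraries (mutants red and left, controls blue and right) and bars are exact Poisson 95% intervals, which cover counting error only. In stromal cells H2-K1 lies at 26.4 and 19.6 CPM in mutants, far below the controls at 475 and 492 CPM, whereas in erythroid cells its genotypes overlap.

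The mutant stromal cells differed in more than these genes, and some of it moves with the result. The 8 stromal markers summed to 8245 and 11442 CPM in mutants 1 and 2 and to 37343 and 33794 CPM in controls. Bone markers summed to 9651 and 4425 CPM in mutants and 3424 and 2054 CPM in controls, mural markers to 560 and 199 CPM in mutants and 46.6 and 5.44 CPM in controls, and fibroblast markers to 84.2 and 127 CPM in mutants and 1231 and 797 CPM in controls. Neutrophil markers reached 25360 CPM in mutant 2, against 77.6 CPM in mutant 1 and 1272 and 43.5 CPM in controls, with Ptprc (the CD45 gene) at 75.1 CPM there. T and NK cell markers were at 0 in all 4 libraries, macrophage and dendritic markers summed to 745 CPM in mutant 2 and to 3.30 to 44.3 CPM elsewhere, and MHC class II genes to 1.65 and 0 CPM in mutants and 13.4 and 16.3 CPM in controls. In these bulk sums, fewer cells that carry a gene and less RNA per cell cannot be told apart, and the part of cell mixture in the falls was not tested. With only cells that lacked a neutrophil marker, H2-K1 stood at 27.8 and 0 CPM in mutants and 479 and 511 CPM in controls, from 41 and 10 mutant cells. With only cells that had under 3 bone markers, it stood at 68.6 and 56.0 CPM in mutants (7 UMIs in 10 cells and 1 UMI in 3 cells) and 457 and 415 CPM in controls. H2-K1 was thus lower in both mutants under either restriction, in sums too small for a test. The bone-marker restriction kept 10 of 49 and 3 of 22 mutant cells, but 793 of 1013 and 33 of 49 control cells. Mean H2-K1 was 62.3 CPM in mutants there, against 23.01 CPM in the full class, and 436 CPM in controls, against 484 CPM. Mean H2-D1 was 298 CPM in mutants, against 131 CPM, and 749.7 CPM in controls, against 776 CPM. Both gaps were thus narrower than in the full class. Under the bone-marker restriction the other genes did not all keep the order of the full class. H2-D1 stood at 373 and 224 CPM in mutants and 849 and 650 CPM in controls, and Tapbp at 49.0 and 56.0 CPM in mutants and 123 and 113 CPM in controls, so both lay below both controls. Psmb8 stood at 39.2 and 112 CPM in mutants (4 and 2 UMIs) and 113 and 42.4 CPM in controls, so the genotypes overlapped, and Tap1 was higher in both mutants, at 39.2 and 56.0 CPM (4 and 1 UMIs), against 26.4 and 28.3 CPM in controls. B2m stood at 353 and 168 CPM in mutants and 712 and 438 CPM in controls, and H2-T23 and Psmb9 had 0 UMIs in both mutants.

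Counted per cell, the difference was also present. After each cell was thinned to 1000 UMIs, H2-K1 had a UMI in 8.16% and 4.55% of mutant stromal cells and in 33.3% and 34.7% of control ones; unthinned, the shares were 18.4% and 13.6% in mutants and 74.0% and 73.5% in controls. H2-D1 had a UMI in 14.3% and 13.6% of thinned mutant cells and 48.0% and 42.9% of thinned control cells. In erythroid cells of the same libraries the thinned share for H2-K1 was 2.38% and 5.44% in mutants and 7.87% and 7.74% in controls. Median depth per stromal cell was 12538 and 12916 UMIs in mutants and 5746 and 7455 UMIs in controls, so the mutant cells were the deeper ones. Barcodes of 10 to 100 UMIs, a sample of RNA outside cells, held H2-K1 at 66.0 CPM in mutant 2 and 132 and 83.6 CPM in controls. Mutant stromal cells thus lay below the free RNA of mutant 2, and control stromal cells above that of their own libraries. Mutant 1 lists called barcodes only and gave no such value.

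H2-K1 was lower in mutant stromal cells relative to H2-D1 as well. There were 20 and 15 H2-K1 UMIs per 100 H2-D1 UMIs in mutant stromal cells, against 54.3 and 72.7 in control ones. In endothelial cells the values were 16.8 and 15.95 in mutants and 24.5 and 36.4 in controls. Bone cells had 54.4 and 60.5 in mutants and 63.3 and 71.0 in controls, and erythroid cells 71.8 and 74.0 in mutants and 60.3 and 71.2 in controls. In these sums over a whole class, both mutants lay below both controls in stromal, bone and endothelial cells, and just above them in erythroid cells. Within mature osteoblasts, a bone group described below, the mutants were instead higher, at 81.1 and 77.8, against 68.4 and 75.6 in controls. The makeup of the bone sum differed between genotypes, and its part was not tested. An exact two-sided permutation test over the 6 splits of 4 libraries gives p = 0.333 in each class, the smallest p it allows.

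**Figure D2:**
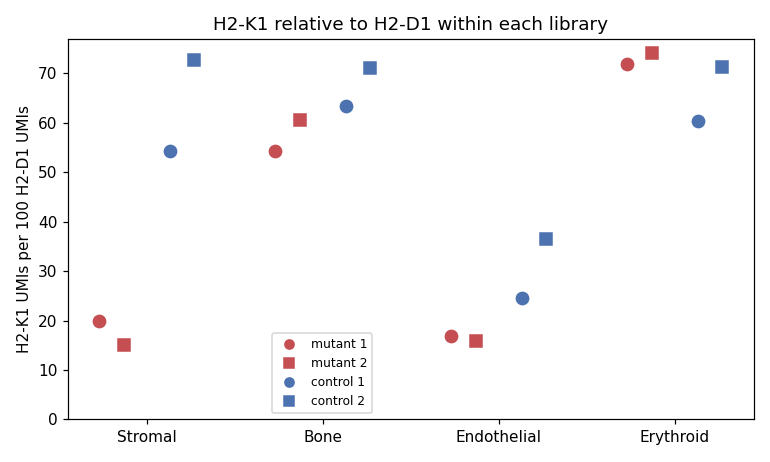
H2-K1 UMIs per 100 H2-D1 UMIs in each library and class, mutants (red) left of controls (blue). Stromal cells show 20 and 15 in mutants beside 54.3 and 72.7 in controls, and in erythroid cells the mutants, at 71.8 and 74.0, lie just above control 2, at 71.2.

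In bone cells, 6 of the 9 pathway genes tested fell and none rose, where 8.15% of the 12915 genes tested fell. These were the 3 heavy chains, B2m and both immunoproteasome subunits, with a median log2 difference over the 9 genes of -1.23, beside 0.04 over all genes. H2-K1 had 47.0 and 51.9 CPM in mutants and 131 and 103 CPM in controls (log2 difference -1.42, SE 0.20, adjusted p = 0.000754 by edgeR). H2-D1 had 86.4 and 85.8 CPM in mutants and 207 and 145 CPM in controls (log2 difference -1.19, SE 0.19, adjusted p = 0.00156 by edgeR). The mutant libraries lay close together and below both controls.

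B2m and H2-T23 followed the classical heavy chains in bone cells. B2m had 156 and 150 CPM in mutants and 439 and 226 CPM in controls (log2 difference -1.23, SE 0.21). H2-T23 had 2.79 and 3.03 CPM in mutants and 12.6 and 19.0 CPM in controls (log2 difference -2.51, SE 0.31), the widest fall among these 4 genes. Psmb9 had 0.209 and 1.10 CPM in mutants and 3.82 and 3.00 CPM in controls, where control 2 rests on 3 UMIs (log2 difference -3.20, SE 0.77). Psmb8 had 2.19 and 2.84 CPM in mutants and 11.1 and 2.003 CPM in controls, so control 2 lay below both mutants; its call (log2 difference -1.83, SE 0.51) rests on control 1.

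The transporter genes and tapasin did not pass in bone cells. Tapbp stood at 17.8 and 22.7 CPM in mutants and 18.0 and 18.0 CPM in controls (log2 difference -0.05, SE 0.22). Tap1 had 1.93 and 3.11 CPM in mutants and 1.27 and 3.00 CPM in controls, and Tap2 2.98 and 4.17 CPM in mutants and 3.82 and 6.01 CPM in controls. Nlrc5 was at 0.183 and 0.152 CPM in mutants and 0.318 and 0 CPM in controls, with at most 7 UMIs in a library.

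The bone calls depended on single libraries. Without control 1 or without mutant 1, none of the 6 passed by edgeR, with 2491 and 1779 genes of all tested at an unadjusted p under 0.05 in those fits, and Psmb8 turned to 0.23 without control 1. Without control 1, H2-K1 stood at -1.15 (adjusted p = 0.146), H2-D1 at -0.84 (0.212), H2-T23 at -2.79 (0.110), B2m at -0.64 (0.306) and Psmb9 at -2.37 (0.435). Without mutant 1, H2-K1 stood at -1.48 (adjusted p = 0.194), H2-D1 at -1.34 (0.257), H2-T23 at -2.57 (0.136), B2m at -1.45 (0.327), Psmb8 at -1.85 (0.343) and Psmb9 at -1.998 (0.304). Without mutant 2 or control 2, H2-D1 and B2m also missed the threshold, at -1.09 and -1.16 and at -1.49 and -1.74, as did Psmb8 without mutant 2 (-1.98) and Psmb9 without control 2 (-2.87). Neutrophil markers summed to 112 and 2353 CPM in mutant and 5.09 and 8.01 CPM in control bone cells; among cells with no such marker, H2-K1 stood at -1.65 and H2-T23 at -2.41 (adjusted p = 0.000144 and 0.000438 by edgeR). Fibroblast markers moved as well, summing to 540 and 881 CPM in mutant and 3365 and 4171 CPM in control bone cells, and their part was not tested.

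Bone cells were split by further markers into a mature osteoblast group (Bglap, Ifitm5), a progenitor-like group (Postn, Tnc), an osteocyte-like group (Dmp1, Sost) and mixed cells. Only mature osteoblasts had 20 cells in every library, with 674 and 705 in mutants and 185 and 28 in controls. Progenitor-like cells were 370 of 1807 and 121 of 1319 bone cells in mutants and 19 of 274 and 4 of 43 in controls, and osteocyte-like cells 171 and 144 in mutants and 8 and 2 in controls, so the makeup of the bone sum differed between genotypes. Within mature osteoblasts, 5 of 8 genes tested fell, where 6.50% of 11800 genes fell. H2-K1 had 66.8 and 63.0 CPM in mutants and 133 and 84.9 CPM in controls (log2 difference -0.84, SE 0.19), and H2-D1 82.3 and 81.0 CPM in mutants and 194 and 112 CPM in controls (-0.99, SE 0.19). H2-T23 had 2.93 and 2.67 CPM in mutants and 13.8 and 18.3 CPM in controls (-2.51, SE 0.37), B2m stood at -1.08 and Psmb8 at -2.67. Without control 1 none of the 5 passed (H2-K1 -0.44, H2-D1 -0.51, H2-T23 -2.75, B2m -0.44, Psmb8 -0.88), with 2372 genes of all tested at an unadjusted p under 0.05. Without mutant 2, H2-T23 and Psmb8 passed (-2.34 and -2.71) and H2-K1, H2-D1 and B2m did not (-0.70, -0.89 and -0.97). Without mutant 1, H2-K1 and H2-D1 did not pass (-1.09 and -1.22).

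H2-K1 was lower in the progenitor-like and osteocyte-like groups of the mutants than in their osteoblasts. Mutant progenitor-like cells had 19.2 and 25.4 CPM of H2-K1 and mutant osteocyte-like cells 8.69 and 18.5 CPM, whereas H2-D1 stood at 93.7 and 73.6 CPM and at 61.4 and 70.8 CPM in these groups. Control progenitor-like cells, 19 and 4 in number, had 94.4 CPM (95% interval 60.5 to 140) and 58.8 CPM (7.12 to 212) of H2-K1. Control osteocyte-like cells numbered 8 and 2, too few to set a level. Poisson intervals cover counting error only, and no test was made in these groups.

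**Figure D3:**
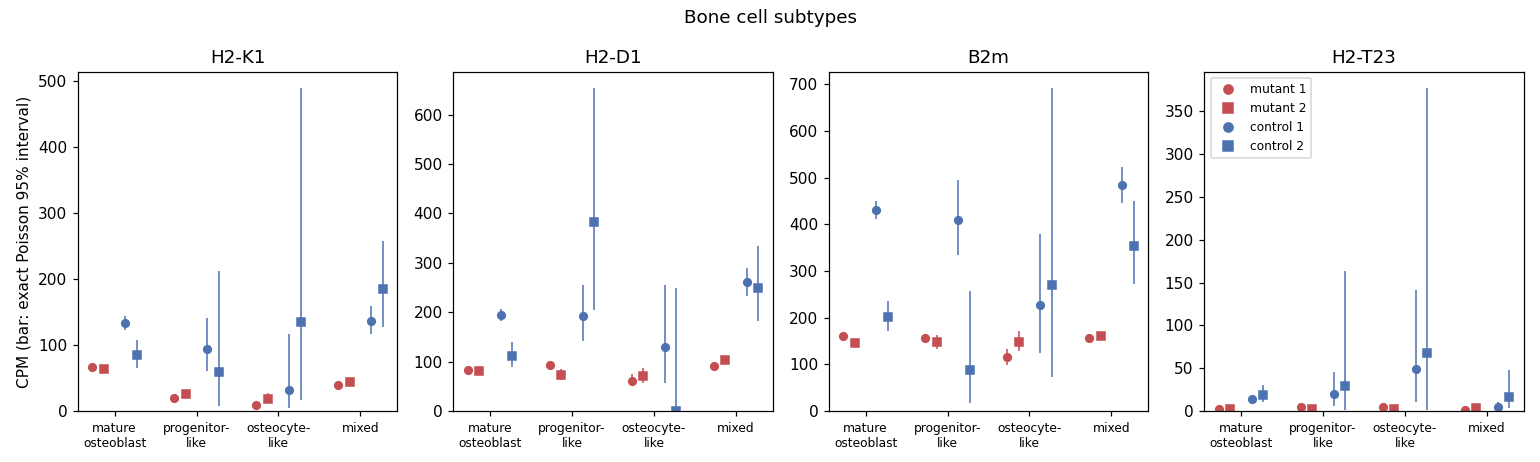
CPM of H2-K1, H2-D1, B2m and H2-T23 in 4 groups of bone cells; points are libraries, mutants (red) left of controls (blue), and bars are exact Poisson 95% intervals. Among mutant libraries H2-K1 stands at 66.8 and 63.0 CPM in mature osteoblasts and at 8.69 and 18.5 CPM in osteocyte-like cells; the long bars are control sums from 2 to 19 cells.

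In endothelial cells, 1 of 9 genes tested fell, where 3.06% of 10745 genes tested fell. It was H2-K1, with 115 and 65.1 CPM in mutants and 143 and 132 CPM in controls (log2 difference -0.82, SE 0.22, adjusted p = 0.0052 by edgeR). This call was lost when any single library was left out, with differences of -1.05 without mutant 1, -0.24 without mutant 2, -0.63 without control 1 and -0.78 without control 2. DESeq2 called none of the 9 (H2-K1 -0.73), with 438 genes of all tested at an unadjusted p under 0.05. H2-D1 stood at 685 and 408 CPM in mutants and 584 and 362 CPM in controls, and B2m at 610 and 367 CPM in mutants and 659 and 478 CPM in controls. In both genes the 2 libraries of a genotype were farther apart than the genotypes. Bone markers summed to 2611 and 984 CPM in mutant and 126 and 54.9 CPM in control endothelial cells, and neutrophil markers to 59.1 and 7405 CPM in mutants and 0 and 26.2 CPM in controls. Among cells with no neutrophil marker H2-K1 stood at -0.84 (adjusted p = 0.0427 by edgeR), and the part of the bone markers was not tested. H2-T23 was at 40.5 and 55.4 CPM in mutants, inside the control range of 115 and 31.9 CPM.

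In erythroid cells no gene of the 10 passed as lower, where 0.798% of the 12287 genes tested fell, and 1 of the 10, H2-T23, rose, where 5.49% of all genes rose. DESeq2 called none lower either, with 980 of all genes tested at an unadjusted p under 0.05, against 1764 by edgeR. H2-T23 had 72.2 and 35.3 CPM in mutants and 34.6 and 23.1 CPM in controls (log2 difference 1.06, SE 0.17, adjusted p = 1.77e-08 by edgeR). Within each processing batch the mutant was the higher one, while mutant 2 and control 1 were nearly level. The call was lost without mutant 1 (0.31, adjusted p = 1) and without control 2 (0.77, adjusted p = 0.425). H2-K1 had 75.2 and 109 CPM in mutants and 94.0 and 98.9 CPM in controls, and H2-D1 105 and 148 CPM in mutants and 156 and 139 CPM in controls. Their differences of 0.20 and 0.06 did not pass.

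Globin content moved with the H2-T23 result. Globin genes took 26.7% and 12.8% of erythroid UMIs in mutants and 4.47% and 3.55% in controls. Among erythroid cells below 5% globin, H2-T23 had 29.5 and 20.7 CPM in mutants and 28.8 and 19.96 CPM in controls, a log2 difference of 0.04 (adjusted p = 1). Among cells at or above 5% globin it had 104 and 56.5 CPM in mutants and 56.9 and 39.8 CPM in controls (log2 difference 1.08, adjusted p = 1.51e-06 by edgeR). H2-K1 ran the other way between the globin groups, with 130 and 153 CPM in mutant cells below 5% and 34.6 and 45.6 CPM in mutant cells above it. In controls it had 106 and 109 CPM below 5% and 47.4 and 45.5 CPM above it. The split did not level the globin content. In the group at or above 5%, globin still took 45.3% and 30.1% of UMIs in mutants and 17.3% and 17.4% in controls. The share of globin beyond this split was not tested.

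**Figure D4:**
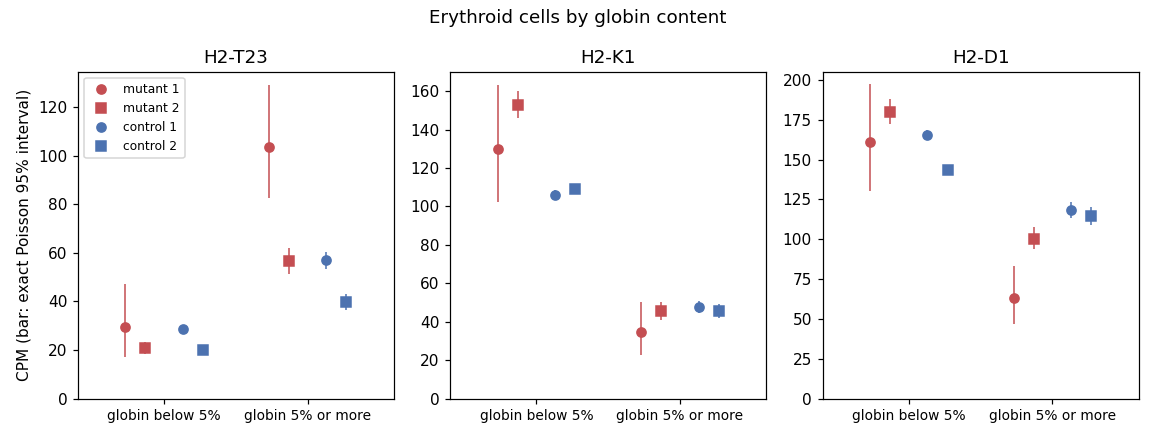
CPM of H2-T23, H2-K1 and H2-D1 in erythroid cells split at 5% globin UMIs; points are libraries, mutants (red) left of controls (blue), and bars are exact Poisson 95% intervals. H2-T23 is higher and H2-K1 lower at 5% globin or more in every library, and mutant 1 stands highest for H2-T23 there, at 104 CPM.

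The classes differed from one another in controls. In 1 fit over all 16 sums, with library as a block, 8 of the 10 genes were higher in stromal than in bone cells of controls, where 16.5% of 14197 genes were higher. The differences ranged upward from 1.16 for H2-K1 (SE 0.29) and 1.27 for H2-D1 (SE 0.29) to 2.68 for Psmb8 (SE 0.38), 3.15 for Tap1 (SE 0.53) and 3.16 for Nlrc5 (SE 0.98), all on the log2 scale. B2m, at 0.05 (SE 0.28), and H2-T23, at 0.92 (SE 0.41), did not pass. These differences depend on the scaling. With total UMIs all 10 genes passed as higher, while the median of all genes stood at 0.99, against 0.12 in the main fit. Without control 1 only Psmb8 passed, at 4.28 (adjusted p = 0.000124), with H2-K1 at 1.34, H2-D1 at 1.31, Tap1 at 2.11, Tap2 at 1.53, Tapbp at 1.68 and Psmb9 at 2.40; Nlrc5 then has 0 UMIs on the bone side. Without control 2, H2-K1 (0.98), H2-D1 (1.20) and Nlrc5 (2.84) did not pass, and H2-T23 did (1.45).

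Among the 4 classes tested, H2-K1 was highest in stromal cells of controls. By mean over the control libraries its order was stromal (484 ± 12.5 CPM), endothelial (137 ± 8.02), bone (117 ± 19.6) and erythroid (96.5 ± 3.50; SD, n = 2 each). Endothelial and bone cells overlapped within 1 SD, and so did bone and erythroid cells. CPM carry no scaling factor. The fit, which scales the sums, put H2-K1 lower in endothelial than in bone cells (-0.58, SE 0.30), a difference that did not pass. Outside these 4 classes, B lineage cells of controls stood near stromal cells, at 428 ± 42.2 CPM (SD, n = 2). H2-K1 was higher in stromal than in endothelial cells of controls by 1.74 (SE 0.30, adjusted p = 7.37e-05 by edgeR), and Nlrc5 by 4.13 (SE 1.15), while the other 8 genes did not pass, where 13.5% of all genes were higher. The Nlrc5 call was lost without control 1 (3.45) and without control 2, and rests on 0 and 2 UMIs in control endothelial cells. For H2-D1 the order was stromal (776 ± 140 CPM), endothelial (473 ± 157), bone (176 ± 43.5) and erythroid (148 ± 12.02). Stromal and endothelial cells did not differ in H2-D1 by the test (0.71, SE 0.29, adjusted p = 0.0728 by edgeR), and bone and erythroid cells overlapped within 1 SD.

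Endothelial cells exceeded bone cells of controls in 6 of 10 genes, where 17.6% of all genes were higher: Psmb8 (2.41), Tap1 (3.37), Tap2 (2.84), Tapbp (1.67), Psmb9 (1.72) and H2-T23 (1.20), while H2-K1 stood at -0.58 (SE 0.30) and did not pass. Without control 1, Tap1 (1.997), Psmb9 (2.07) and H2-T23 (0.03) lost their calls, and without control 2 Tapbp (1.41) and Psmb9 (0.56) did. With DESeq2's size factors H2-T23 also missed the threshold here (1.23, adjusted p = 0.0757 by edgeR) and for erythroid against bone cells (0.85, adjusted p = 0.103 by edgeR). Erythroid cells exceeded bone cells of controls in 5 genes (Tap1 2.89, Tap2 2.23, Psmb9 1.68, H2-T23 1.21, Tapbp 0.94) and were below them in B2m (-0.89) and Psmb8 (-1.16), where 32.4% of all genes were higher and 32.7% lower. Without control 1, which leaves the 43 bone cells of control 2, edgeR called none of these 7, with 6724 of all genes tested at an unadjusted p under 0.05. Tap1 then stood at 1.85, Tap2 at 1.499, Psmb9 at 1.87, H2-T23 at 0.30, Tapbp at 0.80, B2m at -0.54 and Psmb8 at 1.05. Without control 2 Tapbp alone lost its call (0.99).

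In mutant libraries the stromal lead in H2-K1 over bone cells was not there. H2-K1 was lower in stromal than in bone cells of mutants (log2 difference -1.61, SE 0.39, adjusted p = 0.00526 by edgeR), the 1 of 10 genes that was, where 5.59% of all genes were lower. Psmb8 (2.92), Tap1 (2.34) and Tap2 (1.98) were higher in stromal than in bone cells of mutants, where 6.63% of all genes were. Tap1 lost its call without mutant 2 (2.08) and under the stricter cell filter (2.45), and Tap2 without mutant 1 (1.71). Against endothelial cells of mutants, 4 genes were lower in stromal cells, where 9.26% of all genes were: H2-T23 (-3.32), H2-D1 (-1.99), H2-K1 (-1.76) and B2m (-1.10). The H2-K1 call against bone cells was lost with total UMIs as the scaling (-1.05) and under the stricter cell filter (-1.41), which left 14 stromal cells in mutant 2 and so dropped that sum from the fit. The H2-K1 call against endothelial cells held in all 10 alternatives, while that of B2m was lost under the stricter filter (-0.99).

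Bone cells of the mutants were low in these genes beside endothelial and erythroid cells too. Endothelial cells exceeded bone cells of mutants in 8 of 10 genes, where 20.3% of all genes were higher, with Psmb8 at 3.92 (SE 0.37), H2-T23 at 3.66 (SE 0.38) and H2-D1 at 2.03 (SE 0.29), while H2-K1 stood at 0.16 (SE 0.30) and did not pass. Erythroid cells exceeded bone cells of mutants in 8 genes, where 28.6% of all genes were higher, with H2-T23 at 4.42 (SE 0.36), Psmb9 at 3.94 (SE 0.46) and H2-K1 at 1.26 (SE 0.28). Against endothelial cells, H2-D1, H2-T23 and Psmb8 kept their calls in all 10 alternatives. B2m (1.03) lost its call there without mutant 1 (0.74), and Tap1 (1.86) and Tapbp (1.31) lost theirs without mutant 2 (0.81 and 1.07). Psmb9 (3.33) has 0 UMIs in endothelial cells of mutant 1, so no level remains for it without mutant 2. In erythroid cells H2-T23, Psmb9 and H2-K1 kept their calls in all 10 alternatives. Psmb8 (1.05) lost its call without mutant 2 (-0.0071), without control 2 (0.84), with DESeq2's size factors (0.81) and with total UMIs (0.69). Tap1 (2.08) lost its call there without mutant 2 (1.76), and H2-D1 (0.91) without control 2 (0.73) and with total UMIs (0.57).

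The genotype effect itself differed between classes for some of these genes. For H2-K1 the stromal effect went beyond the bone effect by a log2 difference of -2.77 (SE 0.48, adjusted p = 0.00251 by edgeR), and beyond the endothelial effect by -3.50 (SE 0.50, adjusted p = 0.000427 by edgeR). Among all 14197 genes, 0.718% and 0.444% had a more negative effect in these pairs. H2-D1 in stromal cells stood -2.70 beyond endothelial cells (SE 0.42, adjusted p = 0.00124 by edgeR), and its difference from bone cells, -1.23 (SE 0.41), did not pass (adjusted p = 0.179). All 3 calls held in all 10 alternatives. Of the other 9 genes, none had a called difference in effect between stromal and bone cells.

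Between erythroid and bone cells, 4 of 10 genes had a more positive effect in erythroid cells, where 2.33% of all genes did: H2-T23 (3.22, SE 0.52), Psmb9 (2.26), Psmb8 (2.21) and H2-K1 (1.44). H2-T23 held in all 10 alternatives, while H2-K1 and Psmb9 were lost without control 1 (1.30 and 2.11), without control 2 (1.41 and 2.16) and with total UMIs (1.21 and 1.98), and Psmb8 without mutant 2 (1.26) and without control 1 (-0.03). Between endothelial and bone cells, H2-T23 alone was called, at 2.46 (SE 0.57), where 0.676% of all genes were; it was lost without mutant 2 (1.80), without control 2 (1.37), with total UMIs (2.24, adjusted p = 0.0614 by edgeR) and with DESeq2's size factors (2.52, adjusted p = 0.0672 by edgeR). With DESeq2's size factors H2-D1 was called in its place, at 1.47.

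**Figure D5:**
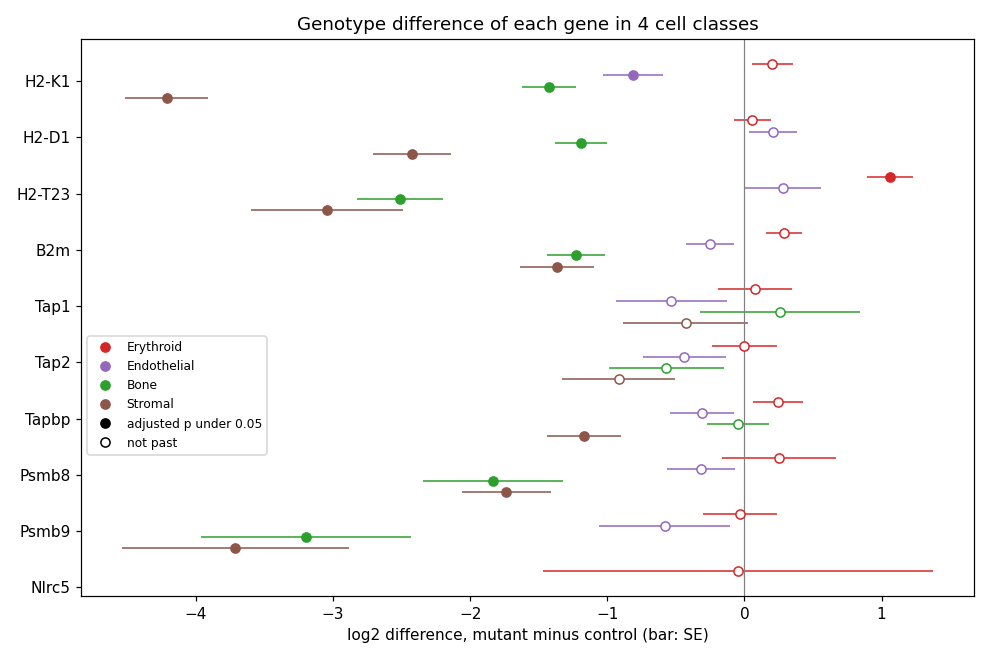
Log2 difference of mutant minus control for each gene in 4 classes, with its SE as a bar; filled points passed an adjusted p of 0.05 and open ones did not, and Nlrc5 was tested in erythroid cells only. Stromal H2-K1 lies farthest from 0, at -4.21, and the erythroid points gather near 0 except H2-T23 at 1.06.

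Genes of the same pathway outside the 10 were read from fixed lists. Their calls come from the main fit alone and were not put through the alternatives run for the 10. Of 8 other class I heavy chain genes tested in stromal cells, 6 fell and none rose, where 7.29% of all genes fell. Cd1d1, which presents lipids to NKT cells, had 26.4 and 16.3 CPM in mutants and 142 and 150 CPM in controls (log2 difference -2.53, SE 0.31, adjusted p = 0.000767 by edgeR). H2-Q10 stood at -3.35 (SE 0.47), H2-Q7 at -3.40 (SE 0.60), Hfe, a regulator of iron uptake, at -1.75 (SE 0.46) and H2-T22 at -1.54 (SE 0.35). H2-Q4 had 0 UMIs in both mutants, against 287 and 8 in controls, which makes it at least 12.97-fold lower with 3 UMIs over the mutant pair as the floor. That bound rests on control 1, and against control 2 alone it is 6.61-fold. The median of the 8 was -2.14, also with H2-Q4 at that bound, beside -0.02 over all genes. Counts of single H2-Q and H2-T genes are uncertain, because these copies are nearly identical over long stretches.

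Some neighbours of these genes fell in stromal cells too, where 7.29% of all genes fell. Single calls in a list of 5 or 6 genes lie near that share, and 2 calls in a list of 10 are few as well. Erap1, which trims peptides in the endoplasmic reticulum, was the 1 of 5 other loading genes that fell, with 6.61 and 16.3 CPM in mutants and 56.7 and 59.8 CPM in controls (log2 difference -2.41, SE 0.47). None of 3 further immunoproteasome genes and none of 7 constitutive proteasome genes passed by edgeR, with medians of -0.32 and 0.03 and 2176 of all genes tested at an unadjusted p under 0.05. Of 10 transcription factors tested, Irf1 (-1.39, SE 0.32) and Irf2 (-1.01, SE 0.27), both interferon regulatory factors, fell. Of 6 interferon receptor and kinase genes, the receptor chain gene Ifnar2 fell (-0.85, SE 0.22), and of 7 interferon-stimulated genes Ifi27 (-1.35), Bst2 (-0.97) and Parp14 (-3.52) fell, with a median of -0.97 over the 7, beside -0.02 over all genes. No gene of these lists rose in stromal cells.

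In bone cells the neighbours had calls in both directions, where 8.15% of the 12915 genes tested fell and 1416 of them rose. Single calls in a list of 7 or 10 genes lie near those shares. Of 9 other heavy chain genes 5 fell: Cd1d1 (-1.46), Mr1 (-1.71), which presents vitamin metabolites, H2-Q7 (-1.97), H2-T22 (-1.503) and H2-M3 (-2.21). Of 6 other loading genes, the endoplasmic reticulum chaperone genes Hspa5 and Pdia3 rose. Hspa5 had 1057 and 1438 CPM in mutants and 435 and 536 CPM in controls (log2 difference 1.18, SE 0.15), and Pdia3 stood at 0.64 (SE 0.15). Of 7 constitutive proteasome genes, Psmb6 fell (-0.69, SE 0.20). Of 7 receptor and kinase genes, Ifnar1, the other chain of the type I interferon receptor, rose (0.89, SE 0.24). Of 10 interferon-stimulated genes, Ifitm3 rose (1.10, SE 0.18) and Gbp7 (-2.28), Rsad2 (-3.93) and Ifi27 (-1.16) fell. None of the 12 transcription factors passed by edgeR, with 4243 of all genes tested at an unadjusted p under 0.05.

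In endothelial cells, Jak2 (-0.98, SE 0.24), 1 of 7 receptor and kinase genes, and Parp14 (-0.95, SE 0.24), 1 of 11 interferon-stimulated genes, fell. There 3.06% of all genes fell, and no other gene of these lists passed. Single calls in a list of 7 or 11 genes lie near that share. In erythroid cells, 3 of 12 interferon-stimulated genes rose, where 5.49% of all genes rose. Isg15 had 75.9 and 50.04 CPM in mutants and 30.4 and 19.0 CPM in controls (log2 difference 1.62, SE 0.17), Rsad2 47.9 and 43.9 CPM in mutants and 18.1 and 16.3 CPM in controls (1.67, SE 0.18), and Irf7 stood at 0.87 (SE 0.29). H2-T24 (1.43, SE 0.42) and Fcgrt (2.83, SE 0.88), 2 of 8 other heavy chain genes, also rose there. So did Ifnar2 (0.60, SE 0.16), 1 of 7 receptor and kinase genes, a single call that lies near the share of 5.49%. The higher globin content of mutant erythroid cells, given above, stands beside these too, and its part was not tested. MHC class II genes, which serve presentation to CD4 T cells, had at most 3 of 7 members tested in a class and none passed.

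The 10 genes did not follow one another equally over the 16 sums of library and class. The correlation of each gene's log2(CPM + 1) with the mean of the other 9 was highest for Tapbp (Pearson r = 0.933) and H2-D1 (0.891), lower for H2-K1 (0.585) and lowest for Nlrc5 (0.384). These 16 sums come from 4 libraries and share their depth and class makeup, so r is a description. Among 8987 other genes with a mean of at least 10 CPM, those most like the mean of the 10 included Lonp2 (r = 0.949), Ifi27 (0.934), Irf2 (0.930) and Wac (0.925). Lonp2 had 26.4 and 19.6 CPM in mutant stromal cells, against 55.8 and 49.0 CPM in control ones.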

How the data were processed

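The deposited files hold raw UMI counts per gene and barcode, 1 matrix per library, from droplet 3′ libraries. Per the submitters' processing notes, reads were counted with Cell Ranger 5.0.1 for control 1 and mutant 1 and 6.1.2 for control 2 and mutant 2, on mm10; the file headers name other Cell Ranger versions for some libraries, and these pairs are the processing batch used as a term here. Mutant 1 lists called barcodes only. The labels give no replicate numbers, so libraries were numbered in accession order.

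Cells needed at least 1000 UMIs, 500 genes and at most 10% mitochondrial UMIs. Classes came from marker gates. A cell near a second list was left out, and no doublet caller was used in the main fits. The gate did not clear markers of other classes from every sum, with neutrophil markers at 25360 CPM in stromal cells of mutant 2. UMIs were summed per library and class where each library had 20 cells, and tested with edgeR 4.0.16 (R 4.3.3; TMM, filterByExpr, quasi-likelihood, batch and genotype as terms), with p-values adjusted over all genes tested (Benjamini-Hochberg, threshold 0.05). This leaves 1 residual degree of freedom per gene, moderated across genes; libraries left out drop the batch term. Class differences came from 1 fit over 16 sums with library as a block. DESeq2 1.42.0, scalings, cell filters, gates and Scrublet (scanpy 1.11.5) were alternatives. The edgeR step was tested on simulated data. CPM are UMIs over the class total; Poisson intervals (95%), exact binomial intervals and floors (3 counts) cover counting error only. All 10 genes are named in each tested class, list genes only where they passed, and the 5 genes most like the mean of the 10, of which 1 is not reported here. The genes, lists and markers were chosen with earlier results of these data known. Stromal alternatives, total-UMI scaling, the globin split and the neutrophil- and bone-poor gates were added after seeing the data.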

Additional observations from a re-analysis of the deposited data

Results flagged for a closer look

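Each value here is a difference of genotype effects between cell classes in the fit over all 16 sums, on the log2 scale, and each was picked out because the test of that difference passed. For H2-K1 the genotype effect in stromal cells differed by -2.77 from that in bone cells and by -3.50 from that in endothelial cells, with both mutants below both controls in all 3 classes. The makeup of the stromal sums differed as well, with stromal markers at 8245 and 11442 CPM in mutants and 37343 and 33794 CPM in controls. Its part was not tested. For H2-D1 the stromal effect differed by -2.70 from the endothelial one, where the genotypes overlap. H2-T23 had a more positive effect in endothelial than in bone cells, by 2.46, and in erythroid than in bone cells, by 3.22. The other 3 differences lie between erythroid and bone cells, at 1.44 for H2-K1, 2.21 for Psmb8 and 2.26 for Psmb9. Bone cells of control 2 hold 2 UMIs of Psmb8 and 3 of Psmb9, and globin differs between erythroid cells of the genotypes; the part of either was not tested.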

How the results depend on the processing

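Counts of the 10 genes called moved most with the test, the batch term and single libraries. With DESeq2, 3 passed in stromal cells (H2-K1, H2-D1 and B2m) and 0 in endothelial cells. Without the batch term, 3 passed in bone, 2 in mature osteoblasts, 0 in endothelial and 0 in erythroid cells. In erythroid cells 3 passed among those with no neutrophil marker (H2-T23 1.47, Tapbp 0.48, B2m 0.38) and 0 below 5% globin. For differences of the genotype effect, total UMIs as scaling gave 3 genes for stromal against bone, 0 for endothelial against bone and 2 for erythroid against bone, and removal of Scrublet calls gave 2 for endothelial against bone. For class differences in controls, total UMIs gave 10 genes for stromal against bone and 8 for endothelial against bone. The medians of all genes there were 0.99 and 0.78. The stricter cell filter gave 2 for stromal against bone cells of mutants. Leaving out 1 library at a time gave 2 to 7 genes in stromal, 0 to 3 in bone, 0 in endothelial, 0 to 1 in erythroid cells and 0 to 5 in osteoblasts. For class differences in controls it gave 1 to 9 (stromal against bone), 3 to 7 (endothelial against bone), 0 to 7 (erythroid against bone) and 1 to 3 (stromal against endothelial), and in mutants 3 to 4, 5 to 8, 6 to 8 and 4 in the same order. The stricter cell filter gave 2 for stromal against bone cells of mutants. For genotype effects it gave 1, 0 to 1, 1 to 6 and 2 to 3 in the same order.

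Of the log2 differences recomputed for the 10 genes, 6 turned sign with a call before or after, and the cause was not tested. B2m stood at 0.81 for endothelial against bone cells of controls with total UMIs. Psmb8, without control 1, stood at 0.23 in bone cells (-2.39 without control 2), at 1.05 for erythroid against bone cells of controls (-1.84 without control 2) and at -0.033 for that genotype effect (2.69 without control 2). For erythroid against bone cells of mutants Psmb8 stood at -0.0071 without mutant 2 (1.14 without mutant 1). Psmb9, for endothelial against bone cells of mutants, stood at -5.09 without mutant 2 (3.31 without control 1), where the endothelial sum left has 0 UMIs, so this fitted value is no level. Of the others, 1611 kept their side of the threshold, 112 lost the call and 35 gained it.

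Over all genes, DESeq2 called 221 higher and 178 lower in stromal cells (edgeR 584 and 526), 635 and 579 in bone (1416 and 1053), 48 and 73 in endothelial (269 and 329), 381 and 9 in erythroid cells (675 and 98) and 442 and 339 in osteoblasts (1193 and 767). Without the batch term the counts were 218 and 273, 592 and 395, 22 and 57, 234 and 2, and 509 and 297. Total UMIs gave 488 and 817 in stromal, 2163 and 813 in bone and 287 and 115 in erythroid cells, and moved the median of all genes there to -0.17, 0.20 and -0.28. Bone counts fell to 0 and 8 without control 1. Mutant 2 held 14 stromal cells with the stricter cell filter and 10 and 3 in the neutrophil- and bone-poor gates, so genotype fits were not run there. The labels give no replicate numbers; the batch term sets 1 mutant beside 1 control in each processing batch and takes the place of a paired fit. Sums of few cells limit the precision, with 22 stromal cells in mutant 2, 27 endothelial cells in control 1 and 43 bone cells in control 2.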

Other observations

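Among blood cells that passed the sort, B lineage cells had H2-K1 near the level of control stromal cells, while neutrophils and megakaryocytes had less of it. B lineage cells, 12 and 52 in mutants 1 and 2 and 175 and 77 in controls 1 and 2, had H2-K1 at 566 and 417 CPM in mutants and 458 and 398 CPM in controls, and Psmb8 at 233 and 302 CPM in mutants and 353 and 275 CPM in controls. In these cells the genotypes overlapped for both genes. Neutrophils, 180 and 778 in mutants and 24 and 31 in controls, had H2-D1 at 539 and 561 CPM in mutants and 169 and 311 CPM in controls, and H2-K1 at 83.4 and 73.1 CPM in mutants and 82.7 and 38.8 CPM in controls. H2-D1 was thus higher in both mutants there, with no test made.

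Megakaryocytes had little H2-K1, at 23.7 CPM in mutant 2 and 42.7 and 24.6 CPM in controls 1 and 2, while H2-T23 stood at 209 CPM in mutant 2 and 34.4 and 165 CPM in controls. The mutant H2-K1 level rests on 6 UMIs. In the 29 megakaryocytes of mutant 2, bone markers summed to 40860.5 CPM, above the megakaryocyte markers at 26683.4 CPM. Bone markers summed to 38.6 and 294 CPM in megakaryocytes of controls 1 and 2. The part of this mixture in the levels was not tested. Mutant 1 held 1 megakaryocyte, which gives no level.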
